A study of Mus musculus with 768 samples.

Results

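Embryoid body cells collected 24 h after induction of a motor neuron programming cassette were compared with cells collected at 18 h. Mouse embryonic stem cells of the Ainv15 line carrying iNgn2.Isl1.Lhx3.V5, a doxycycline-inducible cassette for the transcription factors Ngn2 (Neurog2), Isl1 and Lhx3, were grown as embryoid bodies for 2 days before 3 µg/ml doxycycline was added. Both groups carried the same cassette and received the same dose, and they differed in the time since its addition. Viable single cells were sorted into wells, and each well was sequenced as its own full-length cDNA library by SMART-Seq2 with 50 bp single-end reads. The study sampled 8 time points of 96 cells each, and its libraries were made in 2 batches that the labels do not assign to cells.

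A cell entered the comparison when at least 2000 genes were above 0, which left 56 of 96 at 18 h and 55 of 96 at 24 h, 111 of the 368 kept and 768 deposited cells of the series. A gene was compared when, at the time point where its mean was higher, that mean reached 10 TPM (transcripts scaled to a total of 1000000 per cell) and at least 25% of cells had a value above 0. Of 27723 genes in the table, 6357 met this filter. Each time point was 1 sample, so cells are not replicates and no difference was tested. Sizes are given as log2 of the ratio of mean TPM + 1, with the spread over cells as SD and with each share of cells carrying an exact (Clopper-Pearson) 95% interval that covers counting error only.

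Neurog2 is a proneural factor that commits progenitors to the neuronal fate, and Isl1 and Lhx3 are LIM homeodomain factors that together specify spinal motor neurons. Forced together in stem cells, they act while the pluripotency network, led by Pou5f1, is still being dismantled. Early neurons then build a microtubule and neurofilament cytoskeleton and, later, the machinery that docks and releases synaptic vesicles.

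For the promoters of 3 genes with large differences, Crabp1, Nnat and Stx1a, the RefSeq sequence is shown (GRCm38.p6, from 250 bases before to 50 bases after the annotated start). The GC trend described below is that of transcripts, and the GC of promoter windows was not compared with fold changes. Capitals mark matches, on either strand, to the E-box letters CAGCTG, which proneural factors are known to bind, and to the GC box GGGCGG.
Crabp1, chr9:54764498-54764797, plus strand: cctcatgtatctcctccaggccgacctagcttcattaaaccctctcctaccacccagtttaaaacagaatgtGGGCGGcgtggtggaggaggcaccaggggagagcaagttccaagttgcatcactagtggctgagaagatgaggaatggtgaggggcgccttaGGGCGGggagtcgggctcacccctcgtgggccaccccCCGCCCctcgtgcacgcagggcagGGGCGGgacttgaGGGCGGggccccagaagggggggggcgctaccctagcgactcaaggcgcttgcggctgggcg
Nnat, chr2:157559828-157560127, plus strand: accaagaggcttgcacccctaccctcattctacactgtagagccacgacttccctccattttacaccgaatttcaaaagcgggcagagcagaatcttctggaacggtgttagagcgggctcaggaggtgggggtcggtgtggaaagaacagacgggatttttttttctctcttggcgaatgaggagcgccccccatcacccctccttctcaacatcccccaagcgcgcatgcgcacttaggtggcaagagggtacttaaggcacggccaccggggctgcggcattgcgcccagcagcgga
Stx1a, chr5:135023232-135023531, plus strand: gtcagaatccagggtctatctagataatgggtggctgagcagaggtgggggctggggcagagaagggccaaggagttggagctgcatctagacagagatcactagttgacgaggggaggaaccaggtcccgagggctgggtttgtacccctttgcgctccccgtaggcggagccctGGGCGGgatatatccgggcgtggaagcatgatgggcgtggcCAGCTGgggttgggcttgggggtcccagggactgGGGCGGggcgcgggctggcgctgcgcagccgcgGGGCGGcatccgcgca
The Crabp1 window is 65% GC and holds 5 matches to GGGCGG. Stx1a has 66.3% GC, 3 such matches and 1 match to CAGCTG, and Nnat has 57.3% GC and neither motif. Among 32851 promoter windows of the same length, 35.7% hold GGGCGG and 16.3% hold CAGCTG. The E-box CAGATG (17.2% of windows) and the homeodomain core TAATTA (5.29%), also searched on both strands, have no match in these 3 windows, and a match or its absence is a description of letters only.

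The 18 h cells stood apart from those at 6, 24 and 30 h in base composition and mitochondrial share; 12 h cells were not used here. The 18 h cells gave a TPM-weighted transcript GC of 48.3% (median), against 49.6% at 6 h, 49.5% at 24 h and 49.6% at 30 h, and 52 of 55 cells at 24 h lay above the 18 h median. The 4 rows listed as MT-ND4, CYTB, ATPASE6 and COX2, symbols used for genes of the mitochondrial genome, held a median 6.59% of TPM at 18 h (range 0.412% to 29.5%) and 3.08% at 24 h (0.360% to 17.7%), with 2.75% at 6 h and 3.58% at 30 h. Genes above 0 per kept cell had a median of 7347.5 at 18 h (2109 to 9237) and 6676 at 24 h (3317 to 8494).

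**Figure D1:**
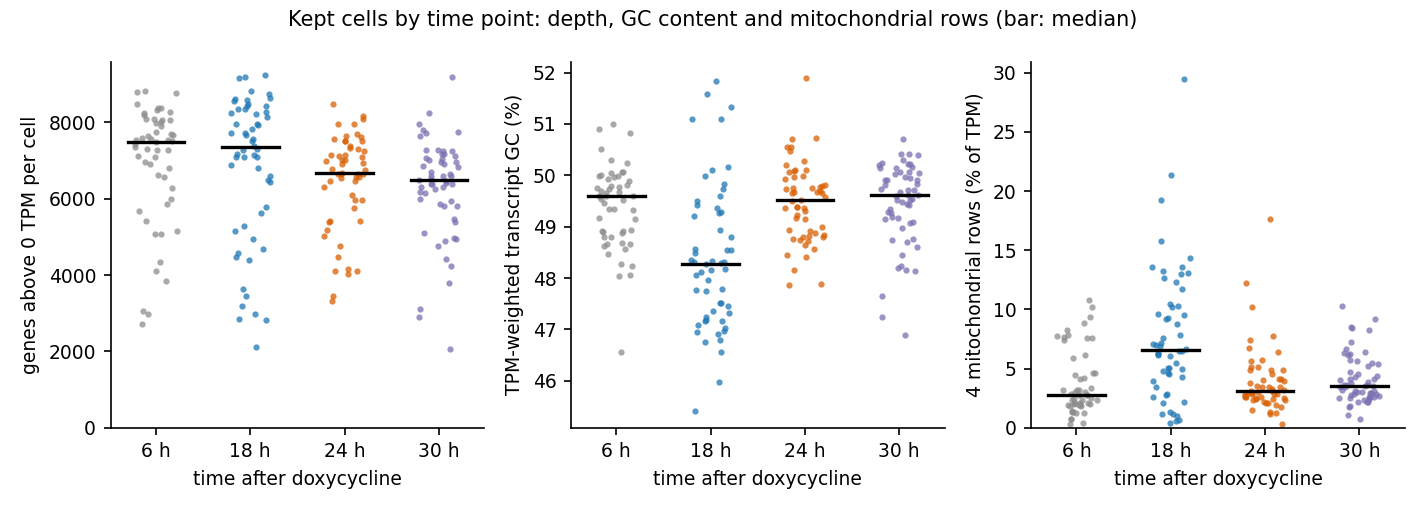
Genes above 0 TPM per cell, TPM-weighted transcript GC (%) and the share of TPM in 4 mitochondrial rows (%) for each kept cell at 6, 18, 24 and 30 h (points: cells, bars: medians). The 18 h cells have the lowest median GC (48.3%) and the highest median mitochondrial share (6.59%) of the 4 time points.

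Across the compared genes the median log2 fold change was 0.18, and 575 genes (9.05%) were at least 2-fold higher and 407 (6.4%) at least 2-fold lower at 24 h. The balance depended on scaling: with TPM rescaled without the 20 highest genes 490 were higher and 632 lower, and without the mitochondrial rows 511 and 495. When odd-numbered and even-numbered cells were also each required to differ 2-fold in that direction, 247 genes (3.89%) remained higher and 201 (3.16%) lower. Some genes met the filter through 1 time point alone, 777 through 24 h and 475 through 18 h, and for these a difference is partly built into the selection. Among the 5105 genes that met it at both time points, 274 (5.37%) were higher and 219 (4.29%) lower. The next interval differed less, with 146 of 6344 genes (2.3%) higher and 121 (1.91%) lower at 30 h than at 24 h. From 6 h to 18 h, 720 of 6083 genes (11.8%) were higher and 448 (7.36%) lower.

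Differences followed GC content. Transcript GC was available for 84.9% of compared genes. In the 540 genes of lowest GC (31.2% to 40.8%), the median log2 fold change was -0.49, 20.2% of genes were at least 2-fold lower and 1.30% higher. The 540 genes of highest GC (56.3% to 67.9%) had a median of 0.56, with 18.7% higher and 1.67% lower. Across genes, which are not independent replicates, Spearman's rho between fold change and GC was 0.51 for 24 h against 18 h, -0.40 for 18 h against 6 h and -0.065 for 30 h against 24 h; the first and second of these share the 18 h cells. After a running median over GC was removed, 177 of 5397 genes (3.28%) were higher and 272 (5.04%) lower. That step also centres the fold changes, and centring alone gave 334 higher and 577 lower of the 6357 genes. The part of GC content or library preparation in any single gene's difference was not tested, and GC-adjusted values accompany the gene lists.

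**Figure D2:**
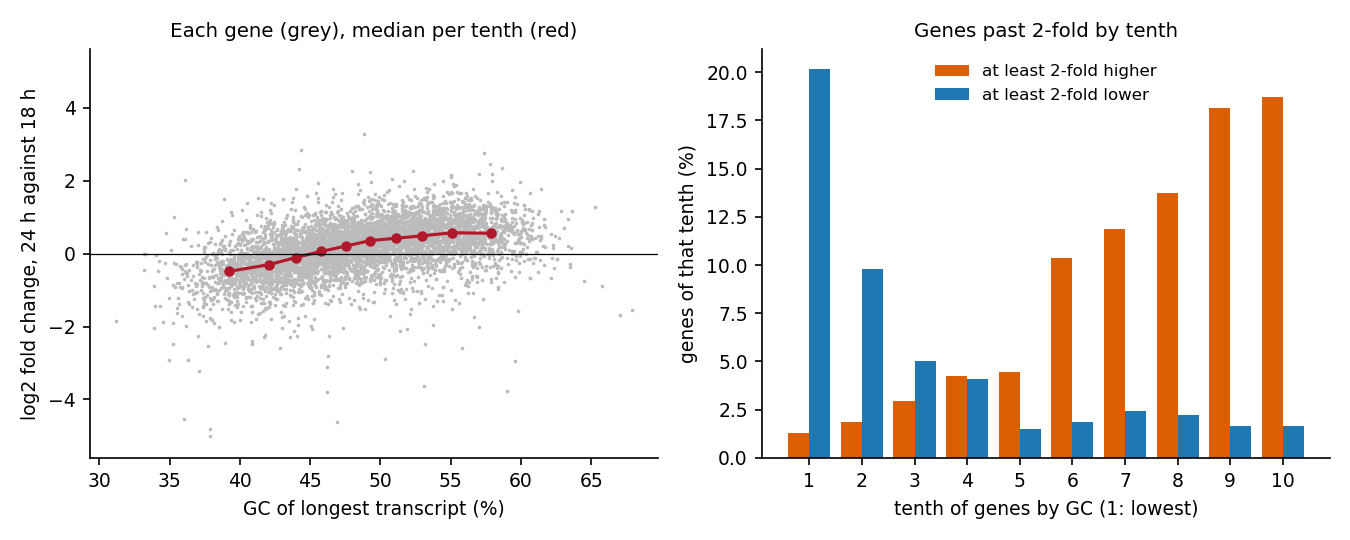
Left, log2 fold change at 24 h against 18 h by the GC content (%) of each gene's longest transcript, with medians of 10 equal bins by GC in red; right, percent of genes in each bin at least 2-fold higher or lower. The median goes from -0.49 in the lowest bin to 0.56 in the highest.

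Of the 3 programming factors, Lhx3 and Isl1 differed little in mean level and Neurog2 was low at both times. Lhx3 (chromosome 2, 26200212 to 26208249) had a mean of 26.9 ± 45.1 TPM (median 11.9, highest cell 211) at 18 h and 26.8 ± 30.8 (median 19.0, highest 126) at 24 h. It was above 0 in 75.0% of 18 h cells (interval 61.6% to 85.6%) and 74.5% of 24 h cells (61.0% to 85.3%). Isl1 (chromosome 13, 116298270 to 116309688) averaged 20.3 ± 48.9 and 16.6 ± 28.3 TPM, in 75.0% and 65.5% of cells, with overlapping intervals (61.6% to 85.6% and 51.4% to 77.8%). Its fold change had opposite signs in odd-numbered (0.83) and even-numbered cells (-1.21), and that of Lhx3 did too (0.92 and -0.73). Neurog2 (chromosome 3, 127632733 to 127635636) averaged 1.44 ± 3.75 TPM in 25.0% of 18 h cells (14.4% to 38.4%) and 0.46 ± 1.51 TPM in 12.7% of 24 h cells (5.27% to 24.5%), and it did not meet the filter. The sources used here do not say whether cassette transcripts were counted in these 3 rows.

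Several neuron-specific genes, among them neurofilament, stathmin and tubulin genes, were higher at 24 h. Of 25 pan-neuronal genes listed, 19 met the filter, 16 of them at both time points, and 9 of the 19 were at least 2-fold higher (background 9.05%) and 0 lower (background 6.4%). Of the 16, 6 were higher, against 5.37% of all genes that met the filter at both times. The median of the 19 lay 0.70 above that of all genes, 0.65 in odd-numbered and 0.67 in even-numbered cells, 0.60 after the GC trend was removed, and 0.78 over all listed genes with no filter. The 10 not past 2-fold included Mtap2, which encodes a dendritic microtubule-associated protein (log2 fold change 0.026), and Elavl2 (-0.25). The wider microtubule and kinesin list was near the background, with 2 of 20 passing genes higher, 0 lower and a median 0.15 above that of all genes (0.02 below after the GC trend was removed).

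Nefl (chromosome 14, 68083863 to 68089095), the light neurofilament subunit, had the highest fold change of the genes that the naming rule admits. Its mean was 6.20 ± 19.1 TPM at 18 h (median 0, highest cell 122) and 68.4 ± 228 at 24 h (median 0, highest 1210), a log2 fold change of 3.27. With an 18 h mean under 10 TPM, Nefl met the filter only through 24 h, so a difference is partly built into its selection. Most cells at both times had none, and the distributions overlapped: 28.6% of 18 h cells (17.3% to 42.2%) and 38.2% of 24 h cells (25.4% to 52.3%) had a value above 0. In the cells with Nefl, the mean was 21.7 TPM at 18 h and 179 at 24 h, and 8 against 16 cells reached 10 TPM. The larger difference was in the level among Nefl-positive cells. Over all kept cells but the highest at each time, the log2 fold change was 3.24. Nefl was at 8.02 TPM at 6 h and 72.2 at 30 h.

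Nefm (chromosome 14, 68119545 to 68125004), the medium neurofilament subunit that lies near Nefl, showed the same form. It averaged 5.25 ± 15.4 TPM in 25.0% of 18 h cells and 33.4 ± 120 TPM in 30.9% of 24 h cells, a log2 fold change of 2.46. Like Nefl, Nefm met the filter only through 24 h. Cells with both Nefl and Nefm made up 14.3% of the 18 h cells (6.38% to 26.2%) and 20.0% of the 24 h cells (10.4% to 33.0%).

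Stmn2, a growth cone protein that regulates microtubule dynamics, was already present in most 18 h cells. Its mean was 45.7 ± 75.1 TPM at 18 h (median 21.5, highest 454) and 132 ± 199 at 24 h (median 62.0, highest 1034), a log2 fold change of 1.52. The share of cells above 0 was 82.1% (69.6% to 91.1%) and 87.3% (75.5% to 94.7%). Tubb3, the neuronal beta-tubulin, went from 93.4 to 219 TPM while 82.1% and 78.2% of cells had it. Rtn1 and Dpysl3, both found in growing neurites, had log2 fold changes of 1.41 and 1.50. For the RNA-binding protein gene Elavl4 (1.49), 1 cell gave 33.6% of the summed TPM at 24 h.

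**Figure D3:**
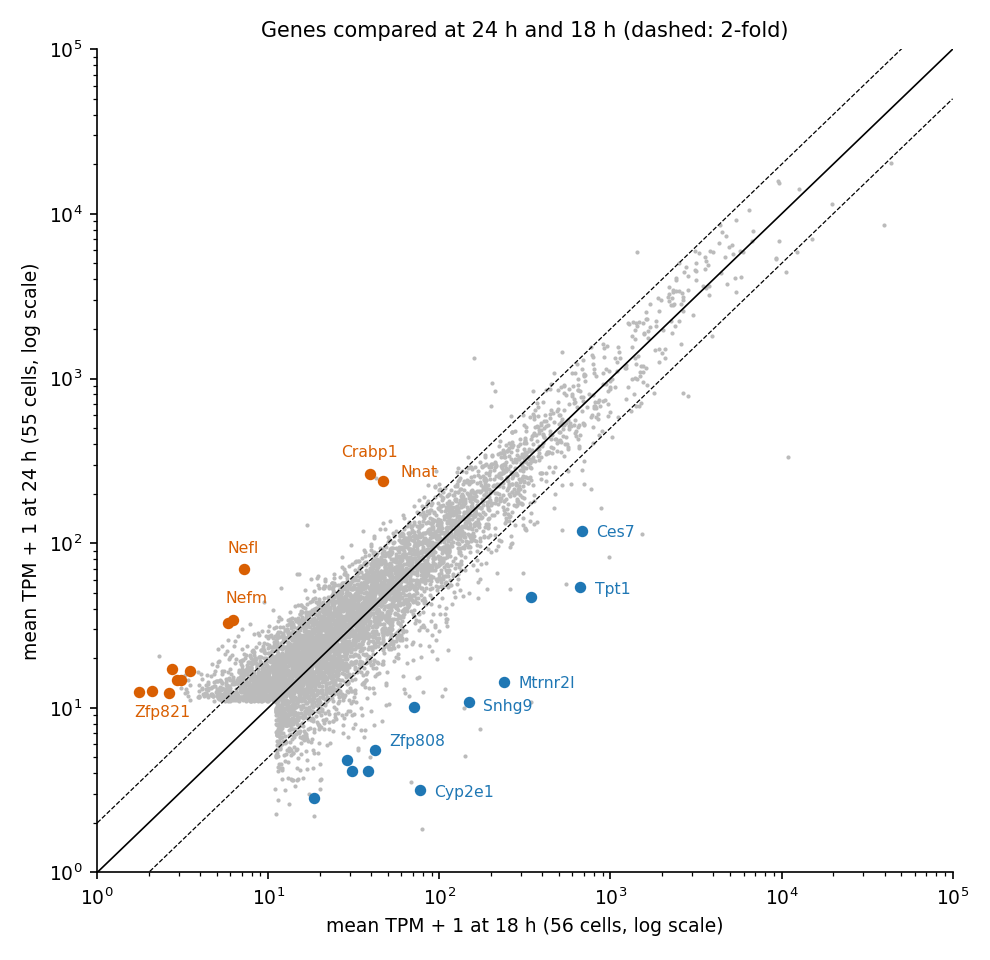
Mean TPM + 1 at 18 h (56 cells) and 24 h (55 cells) on log axes for the 6357 compared genes; dashed lines mark 2-fold, orange and blue points the 12 highest and 12 lowest genes of the naming rule, of which 11 are labelled. Nefl, Nefm, Crabp1 and Nnat stand above the upper line, and Tpt1, Ces7 and Cyp2e1 below the lower.

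Genes of synaptic release were also higher, at lower levels. Of 23 listed, 8 met the filter, with 6 at least 2-fold higher and 0 lower (backgrounds 9.05% and 6.4%). However, 5 of the 8 met it only through 24 h, where they are high; of the 3 that met it at both times, 2 were higher (background 5.37%). Their median lay 1.09 above that of all genes, 0.85 after removal of the GC trend and 0.63 over all listed genes with no filter. Stx1a, a plasma membrane SNARE protein whose promoter is shown above, was at 4.08 ± 8.91 TPM at 18 h (highest cell 49.6) and 21.9 ± 44.4 at 24 h (highest 256), a log2 fold change of 2.17. Stx1a met the filter only through 24 h. It was above 0 in 37.5% and 43.6% of cells, and 6 against 18 cells reached 10 TPM. The complexins Cplx1 and Cplx2, which clamp and trigger vesicle fusion, had log2 fold changes of 1.53 and 1.30, and the granule proteins Chga and Scg3 had 1.23 and 1.09. Snap25, another SNARE protein, differed from these at -0.47.

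Crabp1 and Crabp2, which encode cytoplasmic carriers of retinoic acid, were at least 2-fold higher. Crabp1 (chromosome 9, 54764748 to 54773110) averaged 38.2 ± 53.1 TPM at 18 h (median 14.9, highest cell 216) and 263 ± 1085 at 24 h (median 19.7, highest 8033), a log2 fold change of 2.75. At 24 h 1 cell held 55.6% of its summed TPM; without the highest cell at each time the fold change was 1.73. Crabp1 was detected in 64.3% of the 18 h cells (50.4% to 76.6%) and 58.2% of the 24 h cells (44.1% to 71.4%), and at 30 h its mean was 76.5 TPM. Crabp2 went from 34.8 ± 63.1 to 118 ± 244 TPM, a log2 fold change of 1.73. No retinoic acid receptor gene met the filter: Rara, Rarb and Rarg were between 1.05 and 2.64 TPM at both times.

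Nnat (chromosome 2, 157560078 to 157562525), a small imprinted membrane protein of developing neural cells, went from 46.1 ± 104 TPM (median 1.17, highest cell 399) to 238 ± 704 (median 3.02, highest 4133). Its log2 fold change was 2.34, and 51.8% and 54.5% of cells had it. At 30 h the mean was 378 TPM. The row listed as Peg5, an older symbol for the same gene, had a log2 fold change of 2.51, and reads may be shared between both rows.

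Progenitor genes of radial glia type were mixed. Of 15 neural progenitor genes, 5 met the filter, with 2 higher and 0 lower (backgrounds 9.05% and 6.4%), and their median lay 0.47 above that of all genes (0.92 after removal of the GC trend). Vim, an intermediate filament protein, went from 128 ± 168 to 285 ± 321 TPM (log2 fold change 1.15, with 1.15 in both odd-numbered and even-numbered cells). Prom1, a membrane protein of progenitors, went from 39.0 ± 44.0 TPM (median 21.2, highest 188) to 89.3 ± 76.6 (median 70.4, highest 258), and 38 against 44 cells reached 10 TPM. The progenitor factor Pax6 was at 30.8 and 26.1 TPM, a log2 fold change of -0.24 with opposite signs in odd-numbered (-0.68) and even-numbered cells (0.69).

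Among 9 proneural cascade genes that met the filter, of 20, Nhlh1 and St18 were at least 2-fold higher and Neurod4 was 2-fold lower (backgrounds 9.05% and 6.4%). St18 met the filter only through 24 h and Neurod4 only through 18 h. Of the 7 genes that met it at both times, 1 was higher and 0 lower (backgrounds 5.37% and 4.29%). The median of the 9 lay 0.14 below that of all genes, and 0.04 below after removal of the GC trend. Neurod4, a bHLH factor downstream of Neurog2, averaged 22.1 ± 50.1 TPM at 18 h and 10.6 ± 35.4 at 24 h, in 35.7% and 20.0% of cells. The fold change was -1.49 in odd-numbered and -0.19 in even-numbered cells. St18, a zinc finger factor, went from 3.68 to 12.3 TPM, with 49.4% of its 24 h sum in 1 cell. In the Notch list, 2 of 8 passing genes were higher (background 9.05%), the receptor Notch1 (11.8 and 28.8 TPM) and the fringe glycosyltransferase Mfng (23.1 and 56.6 TPM). The list median was 0.04 above that of all genes, 0.95 above in odd-numbered cells and 0.15 below in even-numbered cells. After removal of the GC trend it was 0.06 below, and 0 of the 8 Notch genes were past 2-fold (backgrounds 3.28% and 5.04%).

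Motor neuron genes were low. Only Lmo4 and Slc18a3 of 13 listed met the filter, and neither was past 2-fold. Mnx1, a defining motor neuron factor, was at 8.41 ± 25.5 TPM in 42.9% of 18 h cells and 8.47 ± 16.7 TPM in 41.8% of 24 h cells. Slc18a3, the vesicular acetylcholine transporter, was at 11.0 and 7.46 TPM. Chat, the acetylcholine-synthesising enzyme, was at 2.74 and 9.06 TPM, with a log2 fold change of 2.52 in odd-numbered and -0.66 in even-numbered cells.

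Core pluripotency genes were on the lower side, unevenly. Of 15 listed, 11 met the filter, with 0 at least 2-fold higher and 2 lower (backgrounds 9.05% and 6.4%), and the median lay 0.34 below that of all genes (0.17 below in odd-numbered and 0.50 below in even-numbered cells; 0.63 below after removal of the GC trend). Of the 10 genes that met the filter at both times, 1 was lower (background 4.29%). L1td1, an RNA-binding protein gene of pluripotent cells, met it only through 18 h, where it is high. It went from 20.5 ± 32.6 TPM in 53.6% of cells (39.7% to 67.0%) to 8.27 ± 24.5 TPM in 23.6% (13.2% to 37.0%). These shares were not adjusted for the genes above 0 per cell, with medians of 7347.5 at 18 h and 6676 at 24 h. Tdgf1, a Nodal co-receptor, went from 46.4 to 20.6 TPM in 30.4% and 29.1% of cells; its log2 fold change of -1.13 was -0.07 by mean log2 values and turned to 1.47 in cells with under 5% of TPM in mitochondrial rows. Dppa2 was at 39.2 and 22.3 TPM, Utf1 at 24.2 and 18.6, Nanog at 29.8 and 31.3.

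Pou5f1, the central pluripotency factor, had a higher mean and a smaller share of positive cells at 24 h. Its mean was 70.1 ± 80.4 TPM at 18 h (median 43.6, highest cell 322) and 115 ± 196 at 24 h (median 59.3, highest 1097), a log2 fold change of 0.71. It was above 0 in 89.3% of 18 h cells (78.1% to 96.0%) and 76.4% of 24 h cells (63.0% to 86.8%), with overlapping intervals. In odd-numbered cells these shares were 92.9% and 89.3%, and in even-numbered cells 85.7% and 63.0%, so the lower share was mainly in the even-numbered cells. The mean in Pou5f1-positive cells was 78.5 and 151 TPM, and 1 cell held 17.3% of the 24 h sum. With all 96 wells at each time the fold change was -2.27, and by mean log2 values of the kept cells it was -0.29. Its sign thus depended on the filter on cells and on how cells were averaged.

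Neuronal and pluripotency transcripts were found in the same cells. Cells with both Stmn2 and Pou5f1 made up 76.8% of the 18 h cells (63.6% to 87.0%) and 65.5% of the 24 h cells (51.4% to 77.8%). Stmn2 without Pou5f1 was seen in 5.36% of 18 h cells (1.12% to 14.9%) and 21.8% of 24 h cells (11.8% to 35.0%). With 10 TPM as the limit for detection, the corresponding shares were 7.14% (1.98% to 17.3%) and 25.5% (14.7% to 39.0%). Cells with Pou5f1 alone were 12.5% and 10.9%.

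A score per cell, the mean log2(TPM + 1) of the passing genes of a list, gave the spread within each time point. The pan-neuronal score had a median of 3.87 at 18 h (0.49 to 6.66) and 4.66 at 24 h (1.80 to 8.63). The core pluripotency score had medians of 3.56 and 3.52. Of the 19 pan-neuronal genes scored, 3 met the filter only through 24 h. Of the 11 core pluripotency genes scored, 1 met it only through 18 h. A difference in score between the time points is thus partly built into the choice of genes. Between both scores, Spearman's rho across cells was -0.09 at 18 h and -0.60 at 24 h. Among cells with at least 4000 genes it was -0.54 (49 cells) and -0.58 (53 cells), so the weak relation at 18 h rested on 7 cells of lower depth. Cells of a time point come from 1 sample and differ in depth, and these values are descriptions. With the synaptic score, the pan-neuronal score had rho 0.78 at 18 h and 0.86 at 24 h.

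**Figure D4:**
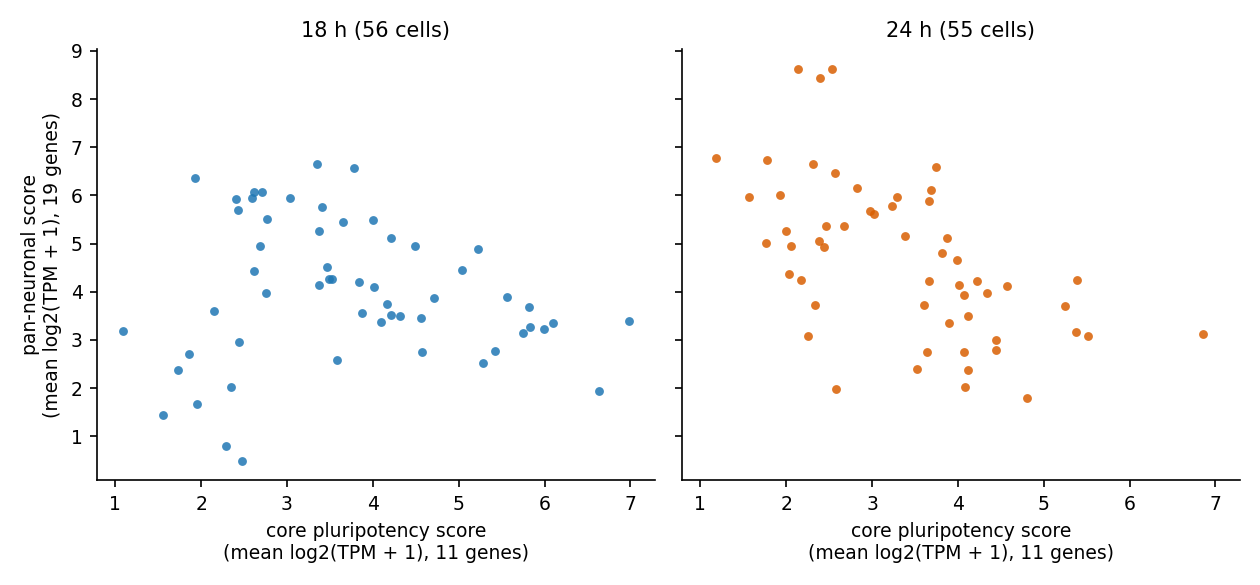
Pan-neuronal score against core pluripotency score, both mean log2(TPM + 1), for each kept cell at 18 h (left, 56 cells) and 24 h (right, 55 cells). Scores along the pan-neuronal axis reach 6.66 at 18 h and 8.63 at 24 h, and both cells below 1 on that axis are at 18 h.

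The mitosis list lay near all genes, the S phase list somewhat above and growth arrest genes below. All 22 mitosis genes met the filter and 0 were past 2-fold in either direction (backgrounds 9.05% and 6.4%). Their median lay 0.15 below that of all genes, with opposite signs in odd-numbered (-0.59) and even-numbered cells (0.15). After removal of the GC trend the mitosis median lay 0.13 below, and 1 of the 22 genes was at least 2-fold lower, a share near the background of 5.04%. Of 20 S phase genes, 19 met the filter and 2 were at least 2-fold higher, a share of members near the background of 9.05%. These were Cdc45, a part of the replicative helicase (20.3 ± 31.2 and 57.9 ± 79.8 TPM), and the helicase subunit Mcm5 (53.1 ± 47.2 and 109 ± 89.1 TPM). The S phase median lay 0.30 above that of all genes (0.28 in odd-numbered and 0.33 in even-numbered cells, 0.29 after removal of the GC trend). Among cells with at least 4000 genes it lay 0.09 above. The growth arrest list had 6 of 14 genes past the filter and 0 past 2-fold (backgrounds 9.05% and 6.4%). Of the 6, 0 were above the median of all genes. The median of the 6 lay 0.43 below that of all genes (0.03 below in odd-numbered and 0.66 below in even-numbered cells). However, 2 of the 6 met the filter only through 18 h, where they are higher. The 4 that met it at both times had a median of -0.085, against 0.14 for all such genes. Over all listed genes with no filter, the median lay 0.23 below. After removal of the GC trend the median of the 6 also lay 0.43 below, and 2 genes were at least 2-fold lower (background 5.04%). Cdkn1a, a cyclin-dependent kinase inhibitor, was at 96.1 and 99.9 TPM.

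Among immediate early genes, which respond quickly to growth factors, 5 of 18 met the filter and 2 were lower (background 6.4%). Both of these, Fos and Egr1, met it only through 18 h, where they are high. Of the 2 genes that met it at both times, 0 were lower (background 4.29%). Fos went from 10.4 ± 20.5 TPM in 37.5% of 18 h cells (24.9% to 51.5%) to 1.74 ± 6.87 TPM in 7.27% of 24 h cells (2.02% to 17.6%). Egr1 went from 24.5 ± 27.7 TPM in 71.4% (57.8% to 82.7%) to 9.64 ± 25.4 TPM in 38.2% (25.4% to 52.3%). At 30 h Fos was at 55.1 TPM and Egr1 at 42.8, both above the 18 h level. Ier2 and Btg2 of the same list were near level, with log2 fold changes of -0.13 and 0.04, and Klf6 was at 0.82. The list median lay 0.30 below that of all genes (0.01 above in odd-numbered and 0.72 below in even-numbered cells). After removal of the GC trend it lay 0.65 below.

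The lowest genes included several that few cells carried. Tpt1, an abundant translationally controlled growth protein, was carried by many 18 h cells. Its mean was 666 ± 1320 TPM at 18 h (median 131, highest cell 5993) and 52.8 ± 208 at 24 h (median 0, highest 1508), a log2 fold change of -3.63. It was above 0 in 69.6% (55.9% to 81.2%) and 40.0% of cells (27.0% to 54.1%), while its means at 6 h and 30 h were 71.1 and 53.8 TPM, so the 18 h mean was above those at 6, 24 and 30 h. Ces7, a carboxylesterase symbol, was at 681 ± 875 TPM in 92.9% of cells and 118 ± 223 TPM in 90.9% (-2.52), with 411 TPM at 6 h and 101 at 30 h. Where cells were limited to those with under 5% of TPM in the mitochondrial rows (19 at 18 h, 44 at 24 h), an alternative chosen after seeing the data, the fold changes were -1.96 for Tpt1 and -0.67 for Ces7.

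For Cyp2e1, a drug-metabolising cytochrome with the lowest fold change that the naming rule admits (-4.61), 1 cell held 76.2% of the 18 h sum, and among cells with 5000 to 9000 genes the value was -1.02. For Snapc4, a subunit of a small nuclear RNA gene activator, 1 cell held 88.2%, and without the highest cell at each time the value went from -2.58 to -0.28. Snhg9 (-3.78), Mtrnr2l (-4.06) and Pbld1 (-2.88) had 85.5%, 79.8% and 69.7% of their 18 h sums in 1 cell each. Without the highest cell at each time these 3 genes were at -1.54, -2.16 and -1.36. The largest loss of mean TPM among genes with names was in ATPASE6, from 43459 to 20334 TPM, and the largest gain was in Eef1a1, a translation elongation factor, from 9598 to 15924 TPM.

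Markers of other cell types were checked by the summed TPM of their defining genes. Endoderm markers (Sox17, Gata4, Gata6, Foxa2) summed to a mean of 0.84 TPM at 18 h and 0.37 at 24 h and were seen in 3 and 1 cells, with Sox17 at 0 at both times. Glial markers (Gfap, Aqp4, Sox10) were seen in 2 and 1 cells, with Sox10 at 0 at both times. Trophoblast markers (Cdx2, Elf5, Hand1) summed to 3.63 and 1.10 TPM, and Cdx2 and Hand1 were at 0. The 3 fibroblast collagens summed to 30.2 and 22.4 TPM, with Col3a1 at 0. The primitive streak factor T (brachyury) was at 18.7 ± 42.2 TPM in 39.3% of 18 h cells and 36.2 ± 95.8 TPM in 32.7% of 24 h cells.

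Of 13 simple epithelium genes 4 met the filter, with Krt18 at least 2-fold higher and the adhesion gene Epcam lower (backgrounds 9.05% and 6.4%). Epcam met it only through 18 h, where it is high. Of the 3 genes that met it at both times, 1 was higher and 0 lower (backgrounds 5.37% and 4.29%). Krt8 went from 374 ± 384 to 710 ± 590 TPM and was above 0 in 56 of 56 and 54 of 55 cells. Its partner Krt18 went from 93.3 ± 146 to 222 ± 257 TPM, in 78.6% and 89.1% of cells (log2 fold change 1.24). Epcam, an adhesion molecule of epithelial and pluripotent cells, went from 18.9 ± 26.9 TPM in 55.4% of cells (41.5% to 68.7%) to 6.81 ± 21.2 TPM in 25.5% (14.7% to 39.0%). After removal of the GC trend these values were 0.35 for Krt8, 0.69 for Krt18 and -1.84 for Epcam.

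**Figure D5:**
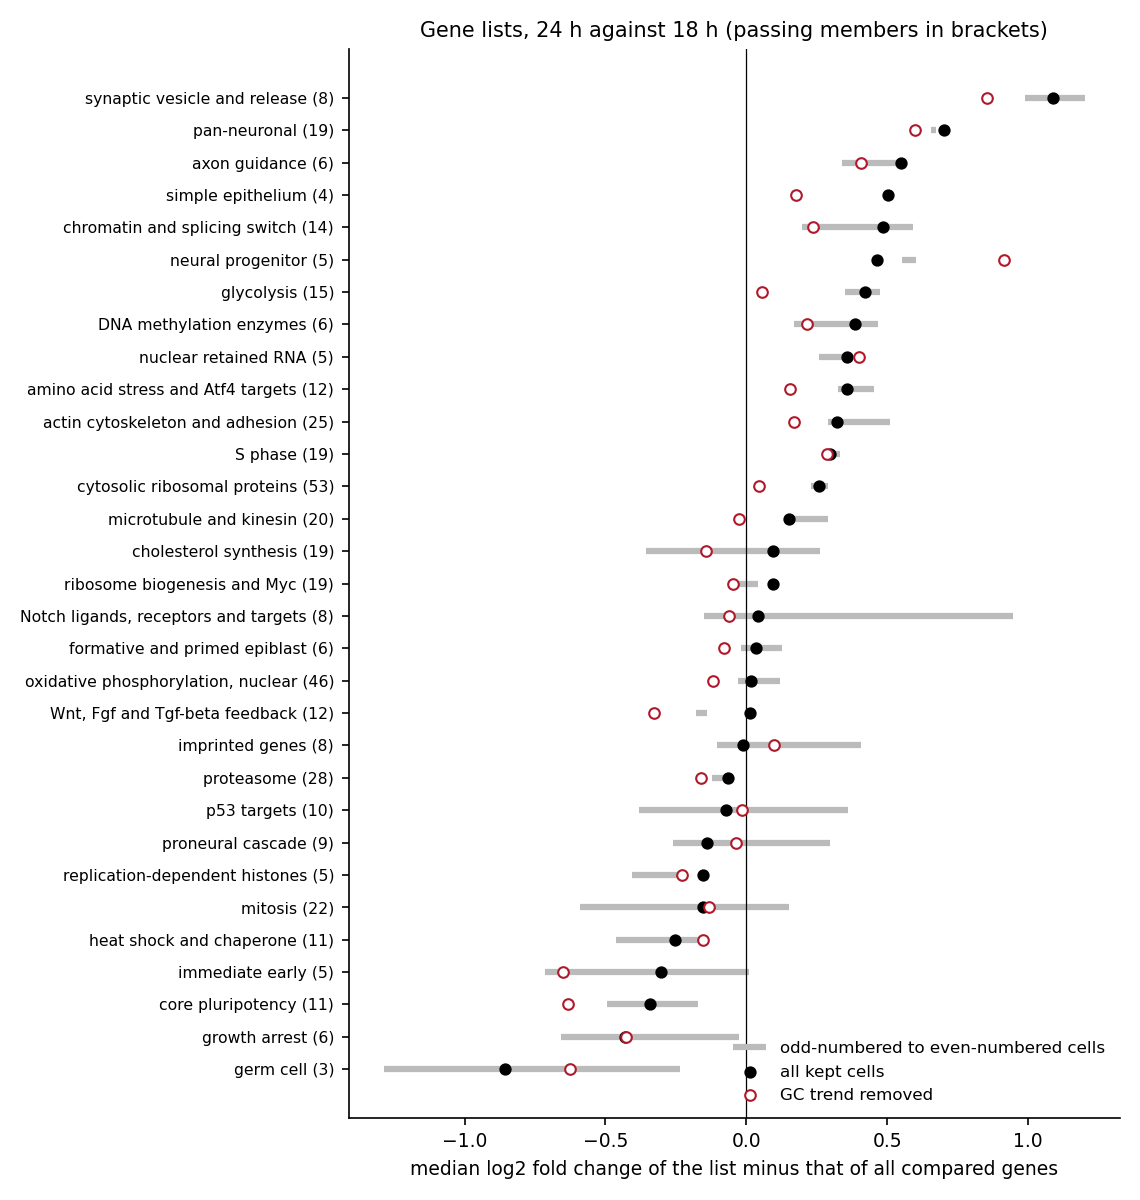
Median log2 fold change at 24 h against 18 h of each gene list minus that of all compared genes (black: all kept cells; grey bar: from odd-numbered to even-numbered cells; open red: GC trend removed), with passing members in brackets. The zinc finger list added after values were seen is not drawn. Among the lists drawn, synaptic release (1.09) and pan-neuronal genes (0.70) lie highest, and germ cell (-0.86), growth arrest (-0.43) and core pluripotency genes (-0.34) lowest.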

How the data were processed

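The authors deposited 1 table of TPM per gene and cell; per the submitters' processing notes, bcl2fastq, Picard and mm10 were used, and the sources used here do not name the aligner or annotation. Column names carry the time point and cell number. TPM sums to 1000000 per cell, so depth per cell is unknown; the labels state a mean of 325000 reads per cell, and TPM cannot be thinned to equal depth. Columns were read as deposited; 0 of them were identical and no doublet caller was run. The filters on cells (2000 genes) and genes (10 TPM, 25% of cells), the pseudocount of 1 and the 2-fold limit are those of the report. Transcript GC came from the longest GENCODE M21 transcript per gene, and the trend was a running median over 301 genes. Gene names are the table's; of 784 list genes, 755 matched by symbol, 10 by a RefSeq synonym and 19 did not. The comparison and the 45 lists were chosen with earlier results of these data known. Genes named are the factors, the 12 highest and 12 lowest fold changes shared by odd and even cells (leaving out unnamed models and small RNAs), the 5 largest gains and losses of TPM, up to 6 members of each described list, and the cell type markers; Crabp2, Mtap2, Elavl2, Snap25 and the retinoic acid receptors were named after their values were seen, and 1 gene is not reported here. Sums over cells used Python 3.11.15 with numpy 2.4.6, pandas 2.3.3 and scipy 1.17.1; the code was tested on simulated data. Gene coordinates are GRCm38 (mm10).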

Additional observations from a re-analysis of the deposited data

How the results depend on the processing

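Under the alternatives, 1892 values of single genes stayed within 1 SD over cells, a wide limit. Signs changed in 11 of 928 values of genes at least 2-fold apart and in 96 of 997 values of genes under 2-fold apart. Relative to all genes, the pan-neuronal median ranged from 0.52 to 1.00, the synaptic from 0.38 to 1.62 and the core pluripotency from -0.63 to -0.11. The 575 genes higher at 24 h became 121 with a pseudocount of 10, 334 (with 577 lower) after a shift to a median of 0, 1710 with no filter on low values, 1007 in odd-numbered cells, 177 with the GC trend removed and 914 in cells with under 5% of TPM in mitochondrial rows. The 407 lower genes became 185 with a pseudocount of 10, 632 when TPM was rescaled without the 20 highest genes, 271 by mean log2 values, 1065 with no filter and 700 with all cells. Among genes at least 2-fold apart, signs changed with all cells for Cyp2e1 (0.49), D7ertd715e (0.36), Pdgfrl (-0.48), Nhlh1 (-0.046) and Dpf2 (-0.25); with at least 4000 genes for Snapc4 (0.077); with 5000 to 9000 genes for Tulp3 (0.12) and Snapc4 (0.54); in even-numbered cells for Zfp82 (0.40); and with under 5% in mitochondrial rows for Atpase6 (0.37) and Tdgf1 (1.47). Atpase6 is 1 of the 4 mitochondrial rows that define the 5% limit, so its value under that limit is partly built into the choice of cells. The causes of the other changes were not tested. No paired analysis was possible because each time point is 1 sample, cell numbers only name cells, and the results come from no test. Reads per cell are unknown, which limits statements on low genes.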

Other observations

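Zinc finger genes whose symbol is Zfp and a number, a list added after values were seen, were mostly on the lower side among those that met the filter: of 321 such genes 99 met it, 28 of them only through 18 h, with 6 at least 2-fold higher and 27 lower (backgrounds 9.05% and 6.4%). Many encode DNA-binding repressors of the KRAB family. Their median lay 0.41 below that of all genes, 0.03 below after removal of the GC trend and 0.12 below over all such genes with no filter, of which 151 of 318 had a higher mean at 24 h. The passing genes had a median GC of 42.5%, against 48.4% for all compared genes. Of these 99, 54 met the filter at both time points, and 0 of them were higher and 6 lower (backgrounds 5.37% and 4.29%). Zfp808 went from 40.8 ± 95.5 to 4.52 ± 8.74 TPM, and Zfp534 from 30.0 ± 48.6 TPM in 73.2% of cells (59.7% to 84.2%) to 3.13 ± 9.56 TPM in 34.5% (22.2% to 48.6%). Both met the filter only through 18 h. Their log2 fold changes were -2.92 and -2.91, and in cells with under 5% of TPM in the mitochondrial rows they were -0.49 and -1.29. In the other direction, Zfp821, which met the filter only through 24 h, went from 0.75 ± 3.01 to 11.5 ± 31.7 TPM.

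Of 23 glycolysis genes 15 met the filter, with 0 at least 2-fold higher and 1 lower (backgrounds 9.05% and 6.4%), and their median lay 0.42 above that of all genes and 0.06 above after removal of the GC trend. Gapdh was at 5409 ± 4187 TPM at 18 h and 9241 ± 5739 at 24 h. Bnip3, a mitochondrial protein responsive to low oxygen, was the exception, at 48.4 ± 58.9 TPM in 64.3% of cells (50.4% to 76.6%) and 15.5 ± 35.5 TPM in 38.2% (25.4% to 52.3%). Axon guidance genes had 6 of 28 past the filter, 1 of them only through 24 h, with 0 past 2-fold (backgrounds 9.05% and 6.4%). Log2 fold changes went from 0.11 for the receptor Robo2 to 0.98 for Dpysl5, a mediator of semaphorin signals. The median of the 6 lay 0.55 above that of all genes. Over all listed genes with no filter the median lay 0.16 above, and with all cells 0.06 above. After removal of the GC trend the median of the 6 lay 0.41 above, and 1 gene was at least 2-fold higher (background 3.28%). Among 14 passing genes of the chromatin and splicing list, Dpf2 (1.09) and Smarcd1 (1.21) were higher and Phf10 (-1.18) lower (backgrounds 9.05% and 6.4%). After removal of the GC trend 0 of the 14 were past 2-fold (backgrounds 3.28% and 5.04%). Smarcd1 met the filter only through 24 h and Phf10 only through 18 h. Of the 11 genes that met it at both times, 1 was higher and 0 lower (backgrounds 5.37% and 4.29%). Dpf2, Smarcd1 and Phf10 are subunits of BAF-type chromatin remodelling complexes, and Phf10 is known from the progenitor form. Of 9 germ cell genes 3 met the filter, 0 of them at both time points; Sycp3, a part of the meiotic chromosome axis, went from 43.2 ± 90.9 TPM in 39.3% of cells to 15.2 ± 85.3 TPM in 20.0%, with 75.5% of its 24 h sum in 1 cell.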
